A study of Mus musculus with 4 samples.

Results

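Genes of the inflammatory hyaluronan coat were followed across mouse embryonic fibroblasts with and without XIAP, the X-linked inhibitor of apoptosis: the hyaluronan synthase genes Has1 and Has2, Tnfaip6 and Ptx3, whose products cross-link the coat, and the receptor gene Cd44. They were taken as every probe set that the platform annotation gives a single one of these symbols, which yielded 7 probe sets for all 5 genes, of 12422 non-control probe sets for 8251 named genes. Ptx3, Has1, Has2 and Tnfaip6 each had 1 probe set and Cd44 had 3. The 4 samples were XIAP knockout (XIAP -/-) fibroblasts given 20 ng/ml tumour necrosis factor (TNFa, here TNF) for 4 hours, unstimulated XIAP knockout fibroblasts, wild-type fibroblasts given the same TNF dose, and unstimulated wild-type fibroblasts. All cells were passaged in serum-containing medium, and TNF was given at confluence, while no treatment, not even a vehicle, is recorded for the unstimulated cells. Strain, embryonic age and sex, the deleted part of Xiap and the number of embryos behind each culture were not stated in the descriptions used here. Each group was measured on 1 Affymetrix U74Av2 array of bulk RNA, so the precision is limited by that number and no fold change can be set against a spread between replicates. In such RNA, fewer cells of a type and less RNA per cell cannot be told apart.

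Hyaluronan is a long, unsulphated polysaccharide that hyaluronan synthases extrude through the plasma membrane while they build it from UDP-glucuronic acid and UDP-N-acetylglucosamine. Tnfaip6 encodes TSG-6, which moves the heavy chains of inter-alpha-inhibitor onto hyaluronan, and Ptx3 encodes a secreted long pentraxin that binds those heavy chains and TSG-6 and so ties hyaluronan strands together, as in the matrix around the mouse oocyte. Cd44 encodes the main cell-surface receptor for hyaluronan. In cultured human fibroblasts, TSG-6 and Ptx3 are long known as products of TNF-induced genes.

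Signals are MAS5 probe set intensities on a linear scale, which the authors brought to a common array level before deposit. Values under a floor of 92.5, the 40th percentile of all signals, were raised to it before folds were taken, and a probe set counted as measured when it exceeded the floor on 1 or more arrays of the comparison. Where 1 of the arrays is at the floor, only a limit of the fold is known, and the text then says at least. By this rule 4 of the 7 member probe sets were measured on at least 1 array, those of Ptx3, Has2 and Has1 and 1 of Cd44, beside 66.2% of all non-control probe sets. Signals of different probe sets are not comparable with each other as transcript levels.

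The cultures behaved as labelled in their TNF treatment and differed in more than Xiap. The brightest probe set of Nfkbia, the inhibitor that NF-kB itself induces, was 5.91-fold higher with TNF in knockout and 6.20-fold higher in wild-type cells. All 6 NF-kB feedback genes on the array exceeded 2-fold with TNF in both genotypes. The brightest probe set of Xiap showed no clear loss in the knockout, at 120 and 181 in TNF-treated and unstimulated knockout cells against 126 and 239 in the corresponding wild-type cells. It is a dim set of the i type, and of 256 such sets 46.9% exceeded the floor on at least 1 array. Another Xiap set read 51.0 and 93.4 in knockout and 57.6 and 115 in wild-type cells, in the same order. A further one lay under the floor on all arrays. The Xiap signals do not check the genotype labels, since the deleted part is unknown. The female-specific transcript Xist read 1601 and 1232 on the knockout arrays, against 5.4 and 34.3 on the wild-type arrays, and the Y-linked Eif2s3y read 9.1 and 2.8 on the knockout arrays, against 308 and 489 on the wild-type arrays. The sex of the cells and any other difference between the cultures therefore cannot be told apart from the genotype in every comparison of knockout with wild-type. Of the 9 fibroblast marker genes with a probe set, 8 were above the floor on all arrays, including the collagen genes Col1a1 and Col1a2, while Vim exceeded it on the unstimulated knockout array alone, at 94.5. The markers Ptprc, Adgre1, Itgam, Fcer1g and Tyrobp of macrophages, Cdh5, Tek, Tie1 and Vwf of endothelium, and Epcam, Krt8, Krt18, Krt19 and Cldn4 of epithelium were below the floor on all arrays. Other markers of these types were above it on at least 1 array, 5 of 10 for macrophages, 3 of 7 for endothelium and 1 of 6 for epithelium. They included Cd14 at 1534 to 2402, Csf1r at 114 to 373, Cd68 at 113 to 145, Eng at 386 to 1895 and Cdh1 at 297 to 531, on all 4 arrays each.

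Ptx3 was the member that moved furthest with TNF. Its signal was 4097 in TNF-treated and 1186 in unstimulated knockout cells, and 9014 in TNF-treated and 727 in unstimulated wild-type cells. Both TNF arrays lay above both unstimulated arrays, and the wild-type pair enclosed the knockout pair, being lower without TNF and higher with it. TNF-treated cells had 3.45-fold more Ptx3 signal in the knockout (log2 1.79) and 12.4-fold more in wild-type (log2 3.63). These changes ranked 52 from the top among 7764 probe sets measured in the knockout pair and 11 from the top among 7846 in the wild-type pair. The response was 3.59-fold smaller in the knockout (log2 difference -1.84), at place 24 from the bottom of 8228 probe sets.

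The smaller Ptx3 response in the knockout had a part on each side of the treatment. Knockout cells carried 2.20-fold less Ptx3 signal than wild-type cells with TNF (log2 -1.14) and 1.63-fold more without it (log2 0.71). With 1 array in each corner of the design no test of this difference was possible. The TNF effect common to both genotypes could be tested with an additive limma model of genotype and TNF, fitted over all 8228 measured probe sets. In it Ptx3 rose with TNF by a log2 effect of 2.71 (SE 0.38, Benjamini-Hochberg adjusted p = 0.0327), with higher signals in both pairs of arrays. Of all probe sets, 1.08% rose with TNF in this model. The call was lost without the intensity trend (adjusted p = 0.194) and without a filter on low values (adjusted p = 0.790). The genotype effect on Ptx3 was -0.22 (SE 0.38, adjusted p = 0.745).

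**Figure D1:**
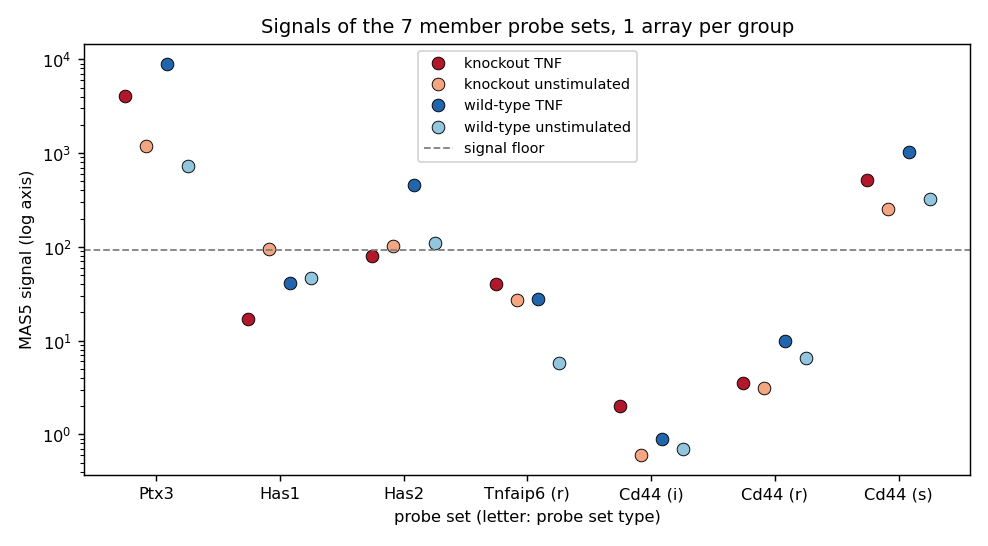
MAS5 signal (log axis) of each member probe set on each of the 4 arrays, with letters for the probe set type; points are single arrays and the dashed line is the signal floor of 92.5. Ptx3 and the s-type probe set of Cd44 lie above the floor on all arrays, Has2 stands clear of it on the TNF-treated wild-type array only, and Tnfaip6 and the other Cd44 probe sets lie below it throughout.

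The promoters of Ptx3 and Cd44 are shown because these are the members that passed 2-fold with TNF in both genotypes. Each window is a RefSeq sequence of build GRCm38.p6 that runs from 250 bases before to 50 bases after the annotated start of the gene, written 5′ to 3′ along the gene's own strand. Ptx3 lies on the plus strand at chr3:66219637-66219936 and Cd44 on the minus strand at chr2:102901616-102901915. Capitals mark matches, on either strand, to the NF-kB consensus, the C/EBP core TTNNGNAA or the AP-1 core TGANTCA.
Ptx3: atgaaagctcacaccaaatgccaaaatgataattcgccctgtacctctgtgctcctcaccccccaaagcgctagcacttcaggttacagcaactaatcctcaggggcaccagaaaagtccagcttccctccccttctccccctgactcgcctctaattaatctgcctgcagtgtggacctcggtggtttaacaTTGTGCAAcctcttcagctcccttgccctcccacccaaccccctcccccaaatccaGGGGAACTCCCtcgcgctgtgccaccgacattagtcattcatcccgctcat
Cd44: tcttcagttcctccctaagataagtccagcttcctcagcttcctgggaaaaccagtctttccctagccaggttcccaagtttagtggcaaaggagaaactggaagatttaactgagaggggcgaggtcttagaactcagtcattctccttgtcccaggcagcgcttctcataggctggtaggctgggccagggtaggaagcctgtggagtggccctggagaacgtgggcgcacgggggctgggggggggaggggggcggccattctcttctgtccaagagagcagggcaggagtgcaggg

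In the Ptx3 window the NF-kB consensus matched on both strands in overlapping positions, from base -1 to base 10 around the start, and the C/EBP core matched at bases -57 to -50. The Cd44 window held no match to any of these motifs. Of the other members, the Tnfaip6 window held an AP-1 match at bases -142 to -136, which the palindromic core gives on both strands, and a C/EBP match at bases -108 to -101, and the Has1 window held C/EBP matches at bases -213 to -206 and -4 to 4. Has2 had no window in the promoter table. Among all 32851 windows of this length in the table, 4.51% held the NF-kB consensus, 40.7% the C/EBP core and 7.81% the AP-1 core. TATAAA was found in 13.6% of the windows and in none of the 4 member windows. A match says only that the letters are present.

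Has2 was the only synthase gene that could be measured in the comparison of TNF-treated knockout with TNF-treated wild-type cells. Its signal was 80.1 in TNF-treated and 103 in unstimulated knockout cells, and 462 in TNF-treated and 109 in unstimulated wild-type cells. The TNF-treated wild-type array stood alone, and the other 3 lay between 80.1 and 109, close to the floor. TNF-treated wild-type cells had 4.23-fold more Has2 signal than unstimulated ones (log2 2.08, place 57 from the top of 7846). In the knockout the TNF-treated array was below the floor, which put the log2 change at -0.16 or lower. TNF-treated knockout cells therefore had at least 4.99-fold less Has2 signal than TNF-treated wild-type cells, whereas the unstimulated cultures differed by a log2 ratio of -0.08. The difference of response was -2.24 on the log2 scale as an upper limit, place 8 from the bottom of 8228 probe sets.

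The additive limma model, which averages the genotypes, gave Has2 a TNF effect of 0.96 (SE 0.48, adjusted p = 0.429) and a genotype effect of -1.20 (SE 0.48, adjusted p = 0.141), neither past the threshold of 0.05. Both effects and their SE depend on the floor. Has1, the other synthase among the members, was near or below the floor throughout. Its signals were 17 in TNF-treated and 93.9 in unstimulated knockout cells, and 40.8 in TNF-treated and 47.1 in unstimulated wild-type cells. Only the unstimulated knockout array exceeded the floor, by 1.02-fold, so no change in Has1 could be measured with this floor.

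The probe set of Tnfaip6, the gene of the heavy-chain transfer protein, read 39.9 in TNF-treated and 27.2 in unstimulated knockout cells, and 27.5 in TNF-treated and 5.8 in unstimulated wild-type cells. All of these lie under the floor, so no fold is given. It is an r-type set, a class for which Affymetrix relaxed some probe selection rules. Of 901 r-type sets 45.3% exceeded the floor on at least 1 array, beside 69.1% of 9614 sets with no letter. A level under the floor on this set does not show that the transcript was absent.

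Cd44, the receptor, was higher with TNF in both genotypes on the probe set that could be measured. This s-type set, whose probes can match more than 1 transcript, read 519 in TNF-treated and 252 in unstimulated knockout cells, and 1024 in TNF-treated and 325 in unstimulated wild-type cells. Both TNF arrays lay above both unstimulated arrays, and the knockout was the lower of each pair. TNF-treated cells had 2.06-fold more Cd44 signal in the knockout (log2 1.04) and 3.15-fold more in wild-type (log2 1.65). Knockout cells had 1.97-fold less than wild-type cells with TNF (log2 -0.98) and 1.29-fold less without it (log2 -0.37), and the difference of response was -0.61. In the additive limma model the TNF effect was 1.35 (SE 0.22, adjusted p = 0.0508) and the genotype effect -0.68 (SE 0.22, adjusted p = 0.0768), neither past the threshold. Both calls depended on the settings of the limma fit. The adjusted p for TNF was 0.00465 to 0.0360 with a lower floor, a pseudocount, quantile normalization or only probe sets above the floor on all 4 arrays, but 0.154 without the intensity trend and 0.770 without a filter. The adjusted p for genotype was 0.0323 with the pseudocount and 0.0312 for probe sets above the floor on all 4 arrays, and 0.0526 to 0.448 in the other 4 alternatives. The i-type and r-type sets of Cd44 read 0.6 to 2.0 and 3.1 to 10.0 over the arrays, below the floor on each, and give no second measurement of the gene.

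Counted together, 3 of 3 measured member probe sets exceeded a 2-fold higher signal after TNF in wild-type cells, beside 2.54% of all measured probe sets. In the knockout the count was 2 of 4, beside 1.57%. Knockout cells with TNF had 2 of 3 at least 2-fold lower, Ptx3 and Has2, beside 4.97%. Without TNF none of 4 differed 2-fold between the genotypes, where 4.53% of all measured probe sets were higher and 4.58% lower in the knockout. The response to TNF was at least 2-fold smaller in the knockout for 2 of 4, beside 1.23%. In the additive limma fit 1 of 4 rose with TNF. None passed the adjusted threshold for a fall with the knockout genotype, as 9.18% of all probe sets did. The unadjusted p of the limma fit for genotype was 0.0458 for Has2 and 0.0188 for Cd44, whose call depended on the settings. Such values were common, as 2762 of 8228 probe sets had an unadjusted limma p for genotype below 0.05, in either direction. Has2 counted as measured in knockout against wild-type cells with TNF only through the wild-type array, on which it was high. The genes were also chosen with these changes known, so these counts describe the members and support nothing further.

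**Figure D2:**
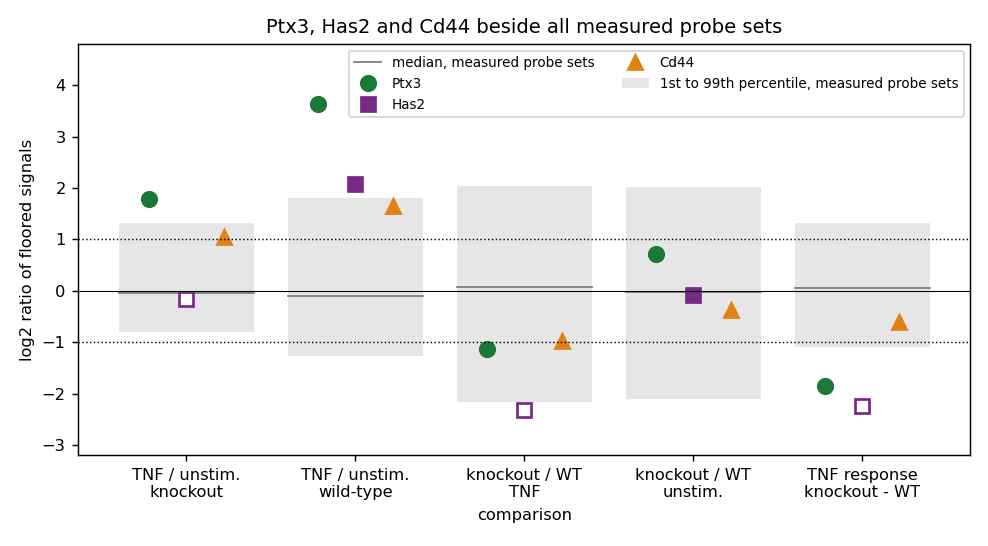
Log2 ratios of floored signals for Ptx3, Has2 and Cd44 in the 4 comparisons and for the difference of TNF response; grey bars span the 1st to the 99th percentile of all measured probe sets, grey lines are their medians, open symbols are bounds set by the floor, and dotted lines mark 2-fold. Ptx3 exceeds the 99th percentile with TNF in both genotypes and Has2 in wild-type cells only, and both lie under the 1st percentile for the difference of response.

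The other genes of the pathway were read from 9 lists of synthesis, breakdown, binding and signalling genes, with each gene represented by its brightest probe set. Of 83 listed genes, members included, 58 had a probe set with a single symbol and 30 were measured on at least 1 array. After TNF, 2 of 28 measured genes passed 2-fold upward in knockout cells and 4 of 25 in wild-type cells. With signals raised to the floor, none passed it downward in either. Over all genes 1.48% were higher in the knockout and 2.64% in wild-type cells. The list medians were 0.00 and -0.07, beside -0.04 and -0.10 for all genes. Ptx3, Has2 and Cd44 accounted for all but 1 of the listed genes that were higher. Apart from Ptx3, no gene on the lists passed the test for TNF in the additive limma fit.

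The remaining gene past 2-fold with TNF was Gfpt2, an amidotransferase of the pathway that makes the amino sugar of hyaluronan. It read 28.1 in TNF-treated and 51.9 in unstimulated knockout cells, and 636 in TNF-treated and 312 in unstimulated wild-type cells. The knockout arrays were below the floor and the wild-type arrays well above it. Wild-type cells had 2.04-fold more with TNF, and knockout cells had at least 6.88-fold less than wild-type cells with TNF and at least 3.37-fold less without it. In the additive limma model Gfpt2 fell by 2.27 (log2) with the knockout genotype (SE 0.30, adjusted p = 0.00418). As both knockout arrays were set to the floor, this effect, its SE and its adjusted p depend on the floor. Ugdh, which makes UDP-glucuronic acid, was bright and moved little, at 3651 and 3758 in TNF-treated and unstimulated knockout cells and 3523 and 3117 in the corresponding wild-type cells. The third synthase gene, Has3, read 30.0 and 25.9 in TNF-treated and unstimulated knockout cells and 81.8 and 33.2 in the corresponding wild-type cells, all below the floor.

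In the hyaluronan-binding list the 2-fold differences lay mainly between the genotypes. With signals raised to the floor, none of its measured genes passed 2-fold with TNF in either genotype. In knockout over wild-type cells 4 of 5 passed it upward with TNF and 3 of 5 without. Over all genes 5.62% were higher in the knockout with TNF and 4.55% without. The difference of TNF response passed 2-fold upward for 1 of 5, Bcan, beside 2.53% of all genes. Vcan, which encodes the large hyaluronan-binding proteoglycan versican, read 1742 in TNF-treated and 1755 in unstimulated knockout cells, and 335 and 258 in the corresponding wild-type cells. Itih2, the gene of an inter-alpha-inhibitor heavy chain that TSG-6 transfers, read 535 and 545 in TNF-treated and unstimulated knockout cells, and 96.9 and 106 in the corresponding wild-type cells. For both genes the knockout arrays lay far above the wild-type arrays. In the additive limma model Vcan rose by 2.57 with the knockout genotype (SE 0.16, adjusted p = 0.000256) and Itih2 by 2.41 (SE 0.22, adjusted p = 0.00122). The list also holds Cd24a, the gene of a surface sialoglycoprotein that is not an established hyaluronan binder, which was 11.6-fold higher in the knockout with TNF and 8.94-fold higher without it. Without it the counts are 3 of 4 and 2 of 4.

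Acan, the gene of the proteoglycan aggrecan, read 164 and 138 on the knockout arrays with and without TNF, against signals under the floor in wild-type cells. In the limma fit Acan rose with the knockout genotype (log2 0.70, SE 0.18, adjusted p = 0.0425). As both wild-type arrays were set to the floor, these values depend on it. Bcan, a neural proteoglycan gene, was at least 2.05-fold higher in the knockout with TNF but 1.68-fold lower without it. TNF-treated cells had 1.79-fold more Bcan signal in the knockout and at least 1.92-fold less in wild-type. The TNF-treated wild-type array, at 53.1, lay under the floor, so that last fold may exceed 2. Its probe set was dim and reached 190 at most. The genotype effect on Bcan in the limma fit was 0.14 (SE 0.40, adjusted p = 0.849). Among the genes that link or shed Cd44, the adaptor gene Ank3 rose with the knockout genotype (limma, adjusted p = 0.00347). It was higher by at least 3.44-fold with TNF and at least 3.02-fold without it. Both wild-type arrays of Ank3 were likewise set to the floor, so its call depends on the floor. The membrane metalloproteinase gene Mmp14, known to cleave Cd44, read 8703 and 8624 in TNF-treated and unstimulated knockout cells and 13918 and 15336 in the corresponding wild-type cells, and it fell by 0.75 (log2) with the knockout genotype (SE 0.09, adjusted p = 0.00336). Hexa, a lysosomal enzyme gene of hyaluronan breakdown, fell by 0.70 (SE 0.10, adjusted p = 0.00589). Over the lists 5 of 30 tested genes rose and 3 fell with the knockout genotype, beside 657 and 594 of 6174 genes, and none of them was one of the 5 members. Genotype calls were thus common on these arrays, and summed markers of other cell types also differed with it. With and without TNF, the smooth muscle sum was 21816 and 22310 in knockout cells and 14519 and 13499 in wild-type cells. It came mostly from Acta2, Tagln and Cnn1, as the other listed markers, Myh11 and Des, were below the floor on all arrays. Whether any smooth muscle cells were present was not tested. The endothelial sum, mostly Eng, was 562 and 743 in knockout cells and 2068 and 2154 in wild-type cells. The fibroblast sum was 60129 and 62853 in knockout cells and 60764 and 63524 in wild-type cells, but single markers differed. Thy1 read 219 and 309 in knockout cells against 1384 and 1120 in wild-type cells, and S100a4 read 4144 and 4106 in knockout cells against 1226 and 1351 in wild-type cells. The part of these markers in the genotype differences was not tested.

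**Figure D3:**
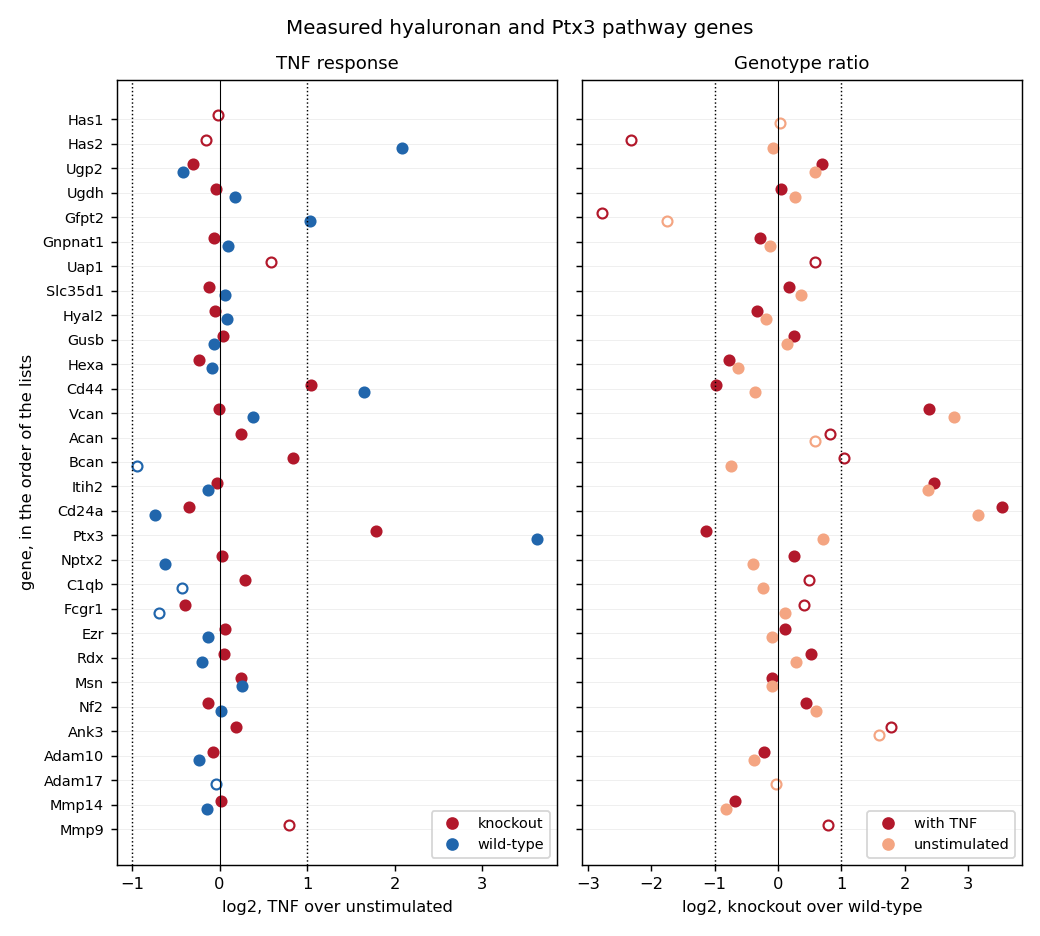
Log2 ratios for the 30 measured genes of the hyaluronan and Ptx3 lists, in the order of the lists; left, TNF over unstimulated in knockout (red) and wild-type (blue) cells; right, knockout over wild-type with TNF (red) and unstimulated (orange); open circles are bounds, dotted lines mark 2-fold, and ratios with both arrays under the floor are not drawn. Ptx3, Has2 and Cd44 stand out on the left, and Vcan, Itih2, Cd24a, Gfpt2, Ank3 and, with TNF, Has2 on the right.

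The genes whose profile over the 4 arrays was most like that of each member were found among 6173 other measured genes, by the root mean square distance between centred log2 floored signals. Nearest to Ptx3 were Bcl3, an atypical IkB protein gene (distance 0.28), Phlda1 (0.30), the leukocyte adhesion receptor gene Vcam1 (0.37), the deubiquitinase gene Tnfaip3 (0.41) and the death receptor gene Fas (0.43). The log2 knockout ratio of Ptx3 without TNF, 0.71, had no measured counterpart in these genes. It was -0.32 for Vcam1, at least 0.07 for Phlda1 and unmeasured for the others. On floored signals Phlda1 came closest in its difference of response, at -1.63 or lower. Its unstimulated wild-type array, at 88.3, lay under the floor. Bcl3, Tnfaip3 and Fas were under the floor on both unstimulated arrays, so their likeness to Ptx3 rests partly on floored values. Vcam1, also bright on all arrays, read 5466 in TNF-treated and 1220 in unstimulated knockout cells, and 11256 in TNF-treated and 1518 in unstimulated wild-type cells.

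Nearest to Has2 were the cytokine gene Il6 (distance 0.09), the regulator of G-protein signalling gene Rgs16 (0.14), Gm9706 (0.14), the AP-1 gene Fos (0.16) and the small GTPase gene Rab20 (0.16). Each was highest on the TNF-treated wild-type array. Il6 read 33.7 and 3.1 in TNF-treated and unstimulated knockout cells and 431 and 5.8 in the corresponding wild-type cells, so its likeness to Has2 rests on 3 arrays under the floor. Gm9706 was likewise above the floor on that array only, and Fos and Rab20 on both wild-type arrays only. Rgs16 was above the floor on all arrays, at 136 and 155 in TNF-treated and unstimulated knockout cells and 574 and 178 in the corresponding wild-type cells. Nearest to Cd44 were Rnf19b (0.07), the secretory kinase gene Fam20c (0.12), the transcription factor gene Cebpb (0.12), the oncostatin M receptor gene Osmr (0.13) and the phospholipid scramblase gene Plscr1 (0.14), all above the floor on all 4 arrays. Their log2 TNF responses were 0.87 to 1.04 in the knockout and 1.37 to 1.87 in wild-type cells, around the values of Cd44. The 5 genes nearest to Has1, led by Tfap2a, lay within 0.0027 of it because they too exceeded the floor by a narrow margin on the unstimulated knockout array alone, so that likeness carries no information. With 4 arrays and many candidates, close profiles are a description of these arrays.

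**Figure D4:**
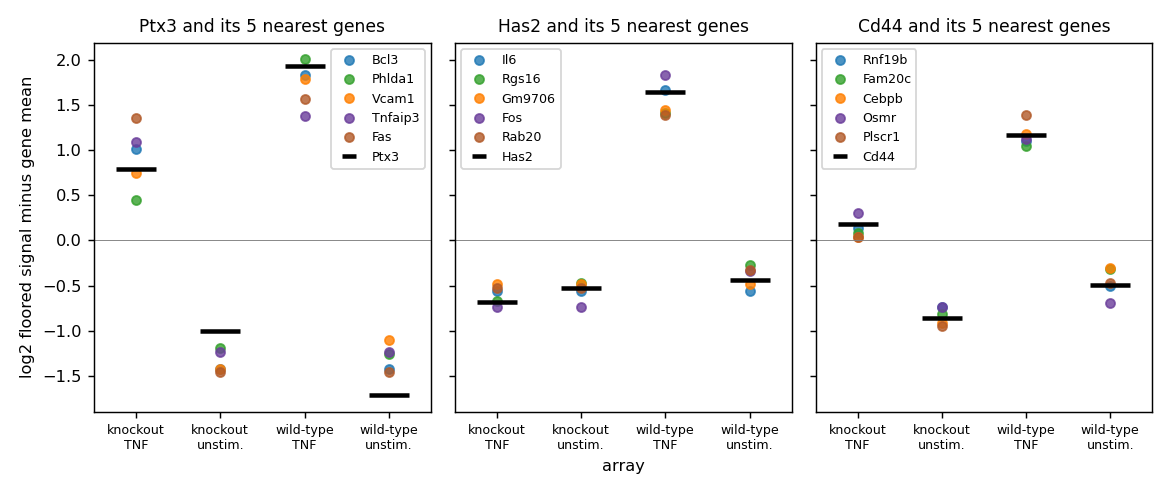
Centred log2 floored signals on the 4 arrays for Ptx3, Has2 and Cd44 (black bars) and the 5 genes with the nearest profile to each (coloured points); the vertical axis is the log2 signal minus the gene's own mean over the arrays. Ptx3 and Cd44 are high on both TNF arrays, and Has2 on the TNF-treated wild-type array only.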

How the data were processed

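Total RNA of 4 cultures was hybridised to 4 single-colour arrays, and titles gave the groups. The authors deposited MAS5 intensity values per probe set, per the submitters' processing notes, on a linear scale. The descriptions used here name no MAS5 version or background settings. The deposited columns share a trimmed mean of 500.3 with 2% left out at each end. The 66 control probe sets were left out. Probe sets with several symbols (396) or none (1193) were not named, and symbols were updated by Entrez identifier through the GRCm38.p6 RefSeq table.

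Signals were floored at 92.5 and converted to log2 with numpy 2.4.6. Pairs of arrays were compared at a threshold of 2-fold without a test. The additive fit used limma 3.58.1 (lmFit and eBayes, 2-sided, the prior variance following intensity, Benjamini-Hochberg adjustment over 8228 probe sets, threshold 0.05), with 1 residual degree of freedom and 5.37 prior degrees of freedom (median). Its p-values treat a difference of response as error and rest mostly on the spread pooled over probe sets. No replicate cultures stand behind any value.

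Alternatives were lower and no floors, a pseudocount of 50, quantile normalization, equal medians, no intensity trend, other filters and the mean of a gene's probe sets. By the rule set beforehand, named genes are all member probe sets, up to 4 listed genes per list and comparison past 2-fold, Nfkbia, Xiap, and the 5 nearest profiles of each measured member. Acan, Mmp14 and Hexa, which did not pass 2-fold in any comparison, were named outside this rule because they passed the fit's threshold for genotype. Other genes with values named outside it (Has3, Ugdh, Xist, Eif2s3y and the cell type markers) were chosen after their values were seen or as checks. Members and lists were chosen with earlier results of these data known.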

Additional observations from a re-analysis of the deposited data

Results flagged for a closer look

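The TNF responses of Has2 had opposite signs in the genotypes. The log2 change was -0.16 in knockout cells, where the TNF-treated array lay below the floor, and 2.08 in wild-type cells, a difference of -2.24 that was not tested. The knockout value lies close to 0 and its unstimulated signal is only just above the floor, so the contrast rests on the TNF-treated wild-type array.

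The genotype ratio of Ptx3 also had opposite signs in the treatments. Knockout over wild-type was -1.14 on the log2 scale with TNF and 0.71 without it, a difference of -1.84 that was not tested. All 4 Ptx3 signals were above the floor. With 1 array per group, neither pattern could be set against the spread between replicates.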

How the results depend on the processing

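For Ptx3, Has2 and the measured Cd44 probe set, 73 of 75 recomputed log2 values kept their direction and their side of 2-fold under other floors, a pseudocount, quantile normalization and equal medians. The exceptions were Cd44 in the knockout with TNF, at 0.91 with log2(signal + 50), and Cd44 in knockout over wild-type cells with TNF, at -1.18 with equal medians. The difference of response ranged from -2.08 to -1.80 for Ptx3 and from -2.47 to -1.92 for Has2. Equal medians moved all probe sets by a median of 0.28 for TNF in wild-type cells, -0.20 for knockout over wild-type with TNF and -0.23 for the difference of response. Calls with TNF in wild-type cells were 199 higher and 219 lower, but 252 and 117 with quantile normalization and 367 and 97 with equal medians. For knockout over wild-type with TNF they were 452 and 385, but 323 and 573 with equal medians. For the difference of response they were 221 and 101, but 145 and 146 with quantile normalization and 124 and 204 with equal medians.

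In the limma fit, 89 probe sets rose and 7 fell with TNF. The counts were 193 and 58 with log2(signal + 50), 143 and 34 with quantile normalization, 15 and 0 without the trend, 160 and 55 for probe sets above the floor on all 4 arrays, and 0 and 0 without a filter, where 799 had an unadjusted p below 0.05. The unfiltered table holds probe sets at the floor on every array, which have no spread. For the genotype 841 rose and 755 fell. The counts were 562 and 487 without the trend and 1059 and 943 with log2(signal + 50). Without a filter 0 rose and 0 fell, with 2049 at an unadjusted p below 0.05. Over these alternatives the adjusted p for TNF was 0.000735 to 0.790 for Ptx3, 0.339 to 0.911 for Has2 and 0.00465 to 0.770 for Cd44.

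A floor of 20.5, at the 20th percentile, moved the counts of listed pathway genes past 2-fold, and those of all genes. With TNF, 5 of 48 measured listed genes were higher and 2 lower in the knockout (main setting 2 and 0 of 28). Of all genes at that floor these were 2.59% and 2.26%. In wild-type cells 7 of 49 were higher and 9 lower (main 4 and 0 of 25), beside 3.41% and 8.73%. In knockout over wild-type cells 10 of 47 were higher with TNF (main 5 of 28), beside 9.62%. Without TNF 7 of 49 were higher and 4 lower (main 4 and 1 of 28), beside 6.10% and 7.02%. For the difference of response 7 of 51 were higher and 7 lower (main 1 and 3 of 30), beside 8.19% and 2.96%. Averaging the probe sets of each gene left 1 higher with TNF in the knockout, as Cd44 was averaged with its dim probe sets, and 0 with a larger response in the knockout. The log2 change of Has1 with TNF in the knockout, not measurable in the main setting, was -2.20 or lower at the lower floor, where the TNF-treated signal of 17 was still under it. The causes of these shifts were not tested.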
